A study of Sus scrofa with 6 samples.

Results

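The retinoid genes examined here are those of the cellular and serum retinoid binding proteins, the retinol dehydrogenases and the nuclear retinoid receptors, measured in fetal pig cortex at E80 and E60. They were taken by gene symbol: CRABP2, RXRG and RLBP1, together with any RARA, RARB, RARG, RXRA, RXRB, RBP2, RBP3, RBP4, CRABP1 and RDH10 to RDH14. Of the symbols searched 11 were the only symbol of at least 1 probe set, and they gave 14 of the 23999 probe sets tested. CRABP1, RARG, RBP3, RDH10, RDH12 and RDH13 were not the only symbol of any probe set and so were not analysed here. The study named CRABP2, RXRG and RLBP1 from these same arrays, so their differences are no independent evidence of a direction. Total RNA of the cortex was read on 1-colour Affymetrix Pig Genome Arrays, on which each transcript is measured by a set of short probes, with 1 array per embryo. The groups were 3 embryos at E80, when the pig cortex shows its primary folds, and 3 embryos at E60, when it is smooth. No treatment or genotype is named for either day, and the litter of each embryo is not given in the sources used here, so litter and day cannot be told apart.

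Retinoic acid is made from vitamin A (retinol) through retinal, and it acts in the nucleus, where receptors of the RAR family bind DNA as pairs with receptors of the RXR family. RBP4 brings retinol to tissues in the blood, bound to transthyretin (TTR), cellular binding proteins such as RBP2 and CRABP2 hold retinoids within cells, and retinol dehydrogenases interconvert retinol and retinal. In the mouse embryo the meninges are a known source of retinoic acid for the cortex, and the striatum is a site of retinoid signalling and of RXRG expression.

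The values are MAS5 signals, which are intensities on a linear scale that the authors scaled to a common level per array. The median signal of all probe sets was 55.6 to 59.5 on the E80 arrays and 60.9 to 64.8 on the E60 arrays, and Spearman's rho across probe sets was 0.967 to 0.984 within days and 0.964 to 0.972 between days. A gene of a marker or pathway list is called measured where it was the only symbol of at least 1 probe set. Other genes of these lists may be on the arrays without such a symbol. Markers of cortical neurons, of which 6 of 13 were measured, had summed signals of 14896 to 15493 at E80 and 12309 to 13412 at E60. Those of the choroid plexus (7 of 12 measured) summed to 236, 266 and 5585 on E80 replicates 1, 2 and 3, and to 118 to 199.6 at E60. E80 replicate 3 thus stood apart, mainly through TTR, which had a signal of 4475 on that array, against 15.1 and 6.25 on the other E80 arrays and 1.47 to 3.70 at E60.

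The 14 probe sets ranged from very bright to very dim. Dimness is given as the percentile of a probe set among all 23999 by its mean log2 signal, since the detection calls of single probe sets were not analysed here, and signals of different probe sets are not compared as amounts of RNA. RDH11 (percentile 91.6), the brighter probe set of RBP4 (87.4), RXRG (78.1), RXRB (74.4), RDH14 (73.5) and CRABP2 (65.1) lay in the brighter part. RARB on its brighter probe set (42.2), RXRA on its brighter probe set (35.0) and RARA (34.5) lay in the middle to lower range. RLBP1 (21.2), the second probe set of RBP4 (17.5), RBP2 (8.13), and the second probe sets of RXRA (2.36) and RARB (0.863) were dim, so that a small difference in signal makes a large fold there.

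**Figure D1:**
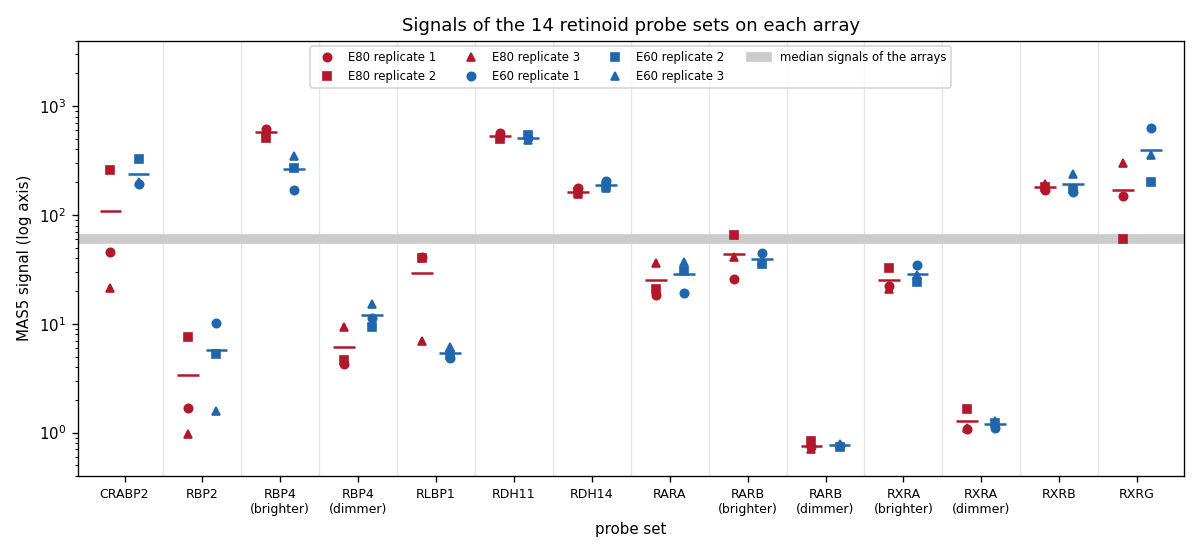
MAS5 signal (log axis) of each of the 14 probe sets on the 3 arrays of E80 (red) and the 3 arrays of E60 (blue), with short bars for the mean of each day and a grey band for the median signals of the 6 arrays. CRABP2, RXRG and RLBP1 spread widely among the E80 embryos, RBP4 on its brighter probe set is higher on each E80 array than on any E60 array, and 8 of the 14 probe sets lie below the median level of all probe sets.

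None of the 14 retinoid probe sets passed the test between the days. The test was limma on log2 signals over all 23999 probe sets with Benjamini-Hochberg adjustment, and a probe set passed at an adjusted p under 0.05. Of all probe sets 467 passed (1.95%), and 1 did when E60 replicate 1, E60 replicate 2 or E80 replicate 1 was left out. At an unadjusted p under 0.05 there were 4 of the 14 (RBP4, RLBP1, CRABP2 and RXRG), or 28.6%, against 4308 or 18% of all probe sets. RLBP1, CRABP2 and RXRG were named by the study from these same arrays, so this share is no independent evidence about retinoid genes. The log2 difference of E80 minus E60 was positive for 5 and negative for 9 of the 14, with a median of -0.14, against a median of -0.05 over all probe sets. The median size of the difference without regard to sign was 0.21 for the 14 and 0.26 for all. In 3 of the 14 (21.4%) all embryos of one day lay above all embryos of the other, which also held for 23.6% of all probe sets. By the fold rule that the study describes, taken here as at least 3-fold from the mean log2 signals with no overlap, 1 of the 14 qualified, which was RLBP1, and 1.21% of all probe sets did. The study named RLBP1 by its fold on these arrays, so that count is not independent either.

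**Figure D2:**
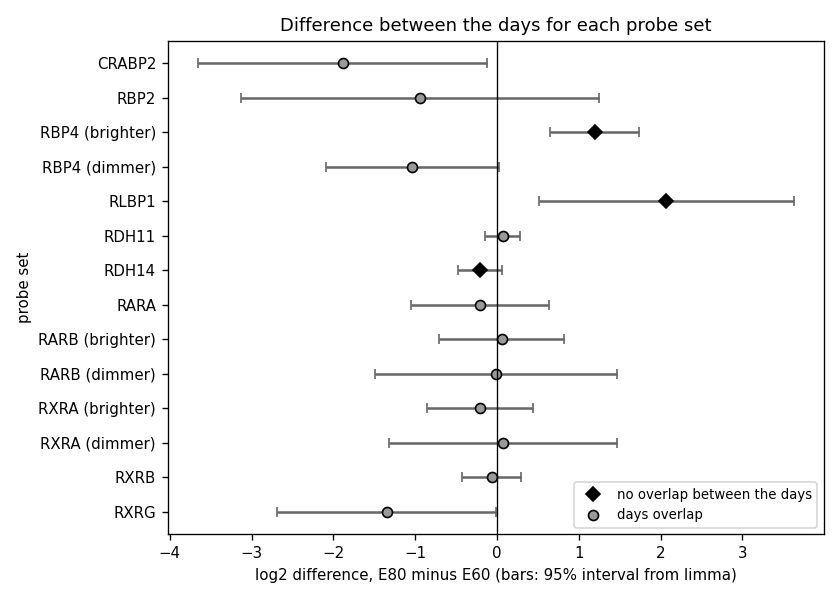
Log2 difference of E80 minus E60 (horizontal axis) for each of the 14 probe sets, with 95% intervals from limma as bars. Black diamonds are the 3 probe sets without overlap between the days (RBP4 on its brighter probe set, RLBP1 and RDH14), and the intervals are widest for CRABP2, RBP2 and RLBP1 and narrowest for RDH11.

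Among the carriers, RBP4 had the smallest p of the 14 probe sets. Its brighter probe set had signals of 618, 507 and 607 at E80, against 169, 269 and 351 at E60. Each E80 array thus lay above each E60 array, and the E80 embryos were close to each other. The means were 577 ± 61.4 at E80 and 263 ± 91.2 at E60 (SD, n = 3 each), a log2 difference of 1.19 (standard error 0.24), or 2.28-fold with a 95% interval of 1.56 to 3.34. The adjusted p of 0.0502 from limma lay just above the threshold, so RBP4 did not pass. It passed with the robust variance model (adjusted p = 0.0479), among the brightest 66% of probe sets (0.0346) and without E60 replicate 3 (0.0345). Over all settings the adjusted p ranged from 0.0345 to 0.184. E80 replicate 3, the array with the high TTR, had a signal of RBP4 between those of the other E80 arrays, and without that array the log2 difference was 1.15 (adjusted p = 0.111). Of the 10 probe sets of the choroid plexus list, that of the coagulation factor gene F5 passed (adjusted p = 0.0159), with signals of 118, 64.1 and 108 at E80 and 22.3, 21.5 and 23.6 at E60, and like RBP4 it was highest on replicate 1 and lowest on replicate 2 of E80. The other genes measured from that list went another way. By their brightest probe sets AQP1, ENPP2, FOLR1, KCNE2, PRLR and TTR were each highest of E80 on replicate 3. The study named F5, AQP1 and ENPP2 (autotaxin) by their folds on these same arrays, so the pass of F5 is no independent evidence. The part of choroid plexus in the signal of RBP4 was not tested. The dim second probe set of RBP4 had signals of 4.27, 4.62 and 9.43 at E80 and 11.2, 9.36 and 15.3 at E60, a log2 difference of -1.04 (adjusted p = 0.287), so that both probe sets of this gene differed in sign.

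CRABP2, the cellular protein that hands retinoic acid to the RAR receptors, was unlike between embryos of E80. Its signals were 45.3, 257 and 21.3 at E80 and 194, 324 and 200.5 at E60. On E80 replicates 1 and 3 CRABP2 lay below every E60 array, while E80 replicate 2 lay within the E60 range, so that the days overlapped. The means were 108 ± 130.0 at E80 and 239.6 ± 73.4 at E60 (SD, n = 3 each). The log2 difference was -1.89 (standard error 0.77, adjusted p = 0.249 from limma), with a 95% interval of -3.66 to -0.12. The highest signal was 12.1 times the lowest at E80 and 1.67 times at E60. CRABP2 was 3.70-fold lower at E80 by the mean log2 signals and 2.22-fold lower by the arithmetic means. Without E80 replicate 2 the log2 difference was -2.91 and passed (adjusted p = 0.0309), and without E80 replicate 3 it was -1.11 (adjusted p = 0.454), in a range of adjusted p of 0.0309 to 0.493 over all settings.

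Some genes of fibroblasts and meninges were low on the same E80 arrays as CRABP2, and others of the list were not. The probe set of lumican (LUM), a proteoglycan of fibroblast matrix, had signals of 90.4, 196 and 71.1 on E80 replicates 1, 2 and 3 and 198 to 241 at E60. The small proteoglycan decorin (DCN) had 112, 305 and 73.0 at E80 and 272 to 580 at E60 on its brighter probe set, and the collagen gene COL1A2 had 167, 290 and 146 at E80 and 319 to 416.5 at E60. In each of these 3 genes, which were picked from the list after their values were seen, E80 replicate 2 was the highest of its day, as in CRABP2. The prostaglandin D synthase gene PTGDS, a marker of the meninges, had 1376, 2354 and 1527 at E80 and 1074, 1163 and 1526 at E60, a log2 difference of 0.46 (adjusted p = 0.300). The collagen gene COL3A1 had one of 0.22 (adjusted p = 0.756), and ASPN had signals of only 23.3 to 25.1 at E80 and 26.8 to 33.5 at E60. In PTGDS, ASPN and DPT, another gene of the list, E80 replicate 2 was also the highest of its day, and in COL3A1 it was not. The summed signal of the marker list of meninges and fibroblasts (7 of 13 measured) was 1843, 3242 and 1895 on E80 replicates 1, 2 and 3 and 2147 to 2504 at E60, with PTGDS as the greater part on the E80 arrays, and none of its 9 probe sets passed the test. The study gives negative folds from these same arrays for decorin and for COL1A1, also of these markers. COL1A1 was not read here. No marker was at 0, though the second probe set of DCN stood at 0.185 to 1.93 at E80 and 0.0334 to 0.191 at E60. The median log2 difference of the list was -0.33 by the brightest probe set of each gene. In tissue RNA, fewer cells of a type and less RNA per cell cannot be told apart, and the part of meningeal tissue in the signal of CRABP2 was not tested. Over the 6 arrays the probe sets most like CRABP2 in log2 signal, among the 6088 brighter ones with a single symbol, were those of the ribosomal protein gene RPLP0 (Pearson's r = 0.993), LUM (0.989) and FAM107B (0.985). The r of 45 candidates was above 0.95, and with 6 arrays this is a description without a test.

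RLBP1, known in the retina as the retinaldehyde binding protein of pigment epithelium and Müller glia, was dim at E60 and split the embryos of E80. Its signals were 41.0, 40.2 and 6.94 at E80 and 4.87, 5.21 and 6.08 at E60. E80 replicates 1 and 2 stood at percentiles 44.1 and 42.0 of their arrays, while E80 replicate 3 stood at 14.9 and the E60 arrays at 10.7 to 14.4. All E80 embryos lay above all E60 embryos, but E80 replicate 3 only by 0.85 units of signal. The means were 29.4 ± 19.5 at E80 and 5.39 ± 0.63 at E60 (SD, n = 3 each), a log2 difference of 2.07 (standard error 0.68, adjusted p = 0.161 from limma), or 4.20-fold with a 95% interval of 1.42 to 12.4. Without E80 replicate 3 it was 2.92 and passed (adjusted p = 0.0351), in a range of adjusted p of 0.0351 to 0.403 over all settings. The difference was 0.66 once 32 was added to each signal and 0.90 once signals under 16 were set to 16, as the E60 signals lie below both values.

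RLBP1 is also known from astroglia, and the markers of astrocytes (10 of 12 measured) were compared with it. Their summed signal was 7535, 7606 and 10343 on E80 replicates 1, 2 and 3 and 5707 to 6239 at E60, so E80 replicate 3, where RLBP1 was low, had the highest sum. GFAP, the intermediate filament of astrocytes, had signals of 456, 677.5 and 1258 on E80 replicates 1, 2 and 3 and 178.5 to 209.6 at E60 on its brightest probe set. By the brightest probe set of each gene, APOE, GFAP, GLUL, S100B and SLC1A2 were highest of E80 on replicate 3. ALDH1L1, ALDOC, SLC1A3 and SPARCL1 were highest on replicate 1 and GJA1 on replicate 2, and SLC1A3, like RLBP1, was lowest on replicate 3. The median log2 difference of the astrocyte list was 0.69, and 4 of its 18 probe sets rose, while 224 of all 23999 probe sets did. These 4 belonged to 3 genes, GFAP, APOE and ALDOC. The study named GFAP and APOE by their folds on these same arrays, so that count is no independent evidence. It also gives positive folds for MLC1, another of these markers, which was not read here. The part of astrocytes in the signal of RLBP1 was not tested. Markers of retina and pigment epithelium were represented by BEST1 and TYRP1 only, with summed signals of 30.3 to 41.5 at E80 and 33.5 to 43.3 at E60. The probe sets most like RLBP1 over the 6 arrays were those of NIPSNAP1 (r = 0.992), the calcium pump ATP2A2 (0.991) and the potassium channel KCNB2 (0.985), with 27 of 6089 candidates above 0.95. The r values describe shapes and not sizes: NIPSNAP1 had 592, 575 and 466 at E80 and 435 to 469 at E60.

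The other binding protein, RBP2, is known as a retinol carrier of the gut and was near the floor of the arrays. Its signals were 1.69, 7.52 and 0.967 at E80 and 10.3, 5.32 and 1.60 at E60, which overlap. The log2 difference was -0.94 with a 95% interval of -3.13 to 1.24 (adjusted p = 0.659), which allows a large difference in either direction.

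The retinol dehydrogenases varied little between embryos, with SDs of the log2 signal of 0.09 at E80 and 0.07 at E60 for RDH11 and of 0.10 at E80 and 0.12 at E60 for RDH14. RDH11 had signals of 564, 497 and 545 at E80 and 507, 538 and 487 at E60, so that the days overlapped, and its log2 difference was 0.07 (standard error 0.09, adjusted p = 0.752 from limma). The 95% interval of its fold was 0.906 to 1.21, which leaves room only for a small difference. RDH14 had signals of 177, 161 and 154 at E80 and 207, 184 and 177 at E60. All E80 embryos lay below all E60 embryos, with 176.6 as the highest of E80 and 177.3 as the lowest of E60. The log2 difference of RDH14 was -0.21 (standard error 0.12, adjusted p = 0.401), with a 95% interval of the fold of 0.719 to 1.04.

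Among the receptors, RXRG had the widest spread. Its signals were 148, 60.5 and 301 at E80 and 630.0, 201 and 354 at E60. The days overlapped, since E80 replicate 3 lay above E60 replicate 2. The means were 170 ± 122 at E80 and 395 ± 218 at E60 (SD, n = 3 each), a log2 difference of -1.35 (standard error 0.58, adjusted p = 0.274 from limma), or 2.55-fold lower at E80. The 95% interval of the log2 difference ran from -2.69 to -0.01, and leaving out single arrays moved the difference between -0.75 and -1.91 without a pass. Embryos of 1 day differed by 4.97 times at E80 and 3.14 times at E60.

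The striatum, which expresses RXRG, lies next to the cortex, and its markers were examined for each array. Only DRD2 and PDYN of 12 were measured by symbol, with summed signals of 59.9 to 249.6 at E80 and 82.3 to 303 at E60 and no signal at 0. The study gives negative folds from these same arrays for DRD2 and for proenkephalin (PENK), also of the striatal markers. PENK was not read here. The dopamine receptor DRD2 had signals of 25.1, 31.4 and 104 on E80 replicates 1, 2 and 3 and 118, 57.3 and 153 on E60 replicates 1, 2 and 3. As in RXRG, E80 replicate 3 was the highest of its day and E60 replicate 2 the lowest. PDYN, which encodes the opioid precursor prodynorphin, had 34.8, 114 and 145 at E80 and 185.5, 24.9 and 78.0 at E60, and it too was highest on E80 replicate 3 and lowest on E60 replicate 2 within the days. The order of E80 replicates 1 and 2 differed, since RXRG was lowest on replicate 2 and DRD2 and PDYN on replicate 1. At E60 RXRG and PDYN were highest on replicate 1 and DRD2 on replicate 3. Neither passed the test, and the part of striatal tissue in the signal of RXRG was not tested. The probe sets most like RXRG over the 6 arrays were those of ADAMTS6 (r = 0.986), C10H9orf64 (0.984) and the cyclin gene CCNY (0.976), with 8 of 6088 candidates above 0.95.

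**Figure D3:**
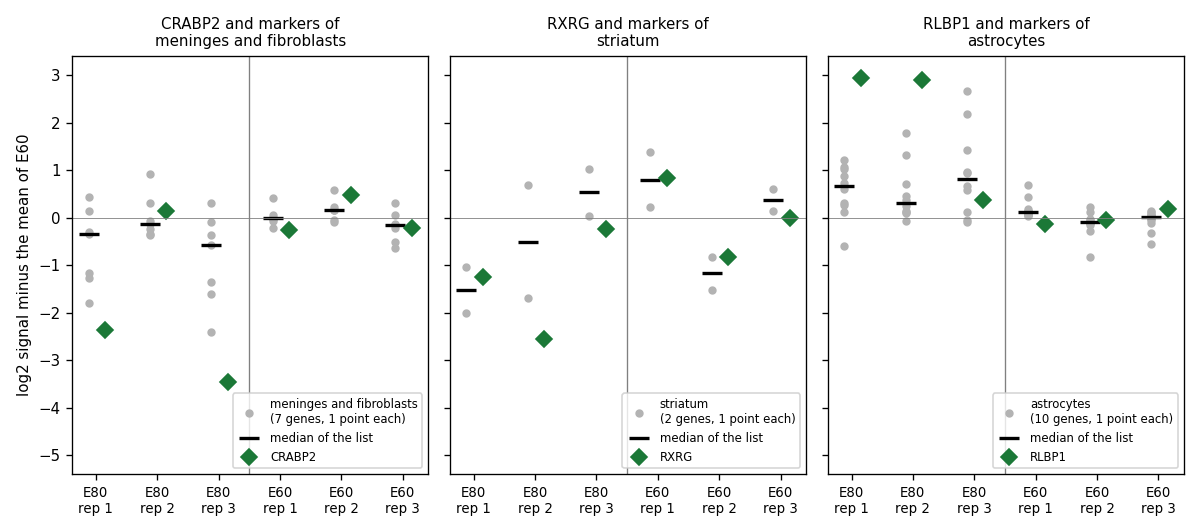
Log2 signal minus the mean of E60 (vertical axis) on each of the 6 arrays for CRABP2, RXRG and RLBP1 (green diamonds), beside the genes of the marker lists of meninges and fibroblasts, striatum and astrocytes (grey points, brightest probe set of each gene; black bars, median of the list). CRABP2 is low on E80 replicates 1 and 3 where several fibroblast genes are also low, and RLBP1 is high on E80 replicates 1 and 2 only. Within E60, RXRG is lowest on replicate 2, as are both striatal genes. Over all arrays RXRG is lowest on E80 replicate 2, where PDYN lies above its E60 mean and DRD2 below.

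The other receptors showed no difference beyond the spread between embryos. RXRB had signals of 170, 179 and 192 at E80 and 164, 172 and 237 at E60, with a log2 difference of -0.07 (adjusted p = 0.870) and a 95% interval of the fold of 0.745 to 1.22. RARA, the most widely expressed of the retinoic acid receptors, ranged over 18.5 to 36.2 at E80 and 19.0 to 36.8 at E60, with a log2 difference of -0.21 (adjusted p = 0.814). These receptors overlapped almost fully between the days. RARB, itself induced by retinoic acid, ranged over 25.6 to 64.8 at E80 and 35.1 to 44.9 at E60 on its brighter probe set, a log2 difference of 0.05 with a 95% interval of -0.72 to 0.82. RXRA ranged over 20.8 to 32.3 at E80 and 24.2 to 34.7 at E60 on its brighter probe set, a log2 difference of -0.21 with a 95% interval of -0.86 to 0.44. The dim second probe sets stayed at 0.707 to 0.831 at E80 and 0.741 to 0.788 at E60 for RARB, and at 1.07 to 1.65 at E80 and 1.09 to 1.27 at E60 for RXRA, too low to read a difference from. The adjusted p of these 4 probe sets of RARB and RXRA was 0.749 to 0.995 from limma.

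The members also differed in how far the embryos of 1 day lay apart. Among the 1001 probe sets nearest to it in mean log2 signal, the SD of CRABP2 over the E80 embryos (1.84 on the log2 scale) was the highest, and at E60 its SD of 0.41 stood at percentile 90. For RXRG the SD of 1.16 at E80 and of 0.83 at E60 stood at percentiles 99.9 and 99.8. RLBP1 had an SD of 1.47 at E80 (percentile 93.2) and 0.16 at E60 (percentile 11.8). RBP4 on its brighter probe set had 0.16 at E80 (percentile 60.2) and 0.53 at E60 (percentile 98.6). On the log2 scale the E60 embryos thus varied more in the brighter probe set of RBP4, and the E80 embryos more in CRABP2, RXRG and RLBP1. The dim probe set of RBP4 went the other way (log2 SD 0.63 at E80, 0.36 at E60). On the linear scale RXRG had the greater SD at E60 (218, against 122 at E80). This is a description of 3 embryos per day and was not tested. The log2 signals of CRABP2, RXRG and RLBP1 did not move together over the 6 arrays, with r of -0.17 for CRABP2 and RLBP1 and -0.11 for CRABP2 and RXRG, while that of RLBP1 and RXRG was -0.83.

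**Figure D4:**
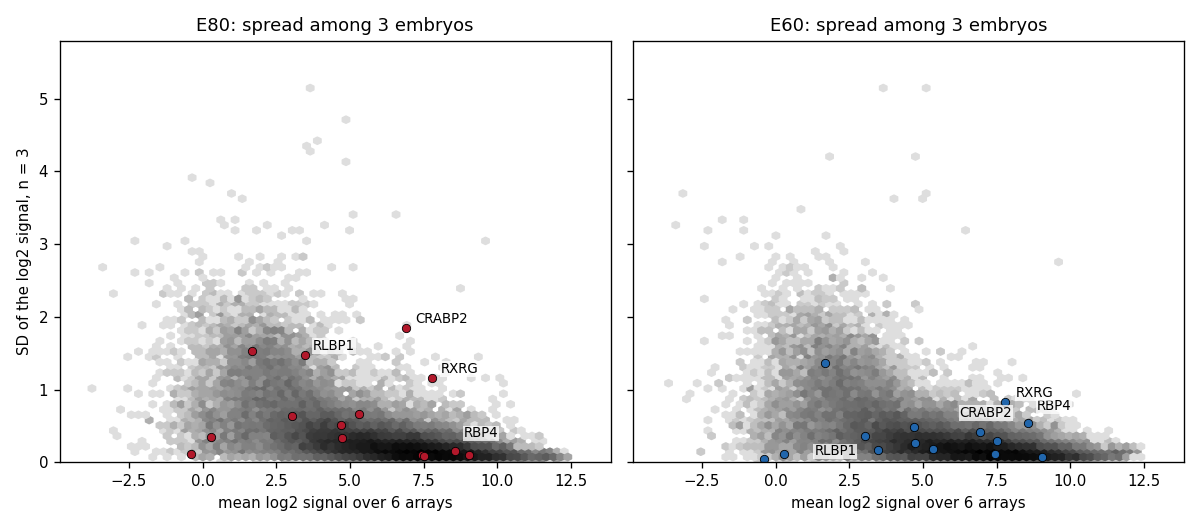
SD of the log2 signal over the 3 embryos of E80 (left) and E60 (right) against the mean log2 signal over the 6 arrays, for all 23999 probe sets (grey, darker where there are more of them) and the 14 retinoid probe sets (coloured points). CRABP2 and RXRG lie above nearly all probe sets of their level at E80, where their SDs are 1.84 and 1.16, and RXRG does so at E60 as well, where its SD is 0.83.

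Other genes of the pathway were read in 4 lists of enzymes and carriers, partners of RXR, coregulators and genes known to respond to retinoic acid, which together held 53 further probe sets of 29 genes. None of the 53 passed limma, and 12 (22.6%) had an unadjusted p under 0.05, against 18% of all probe sets. All embryos of one day lay above those of the other in 9 (17.0%), against 23.6% of all probe sets. The median log2 difference was -0.12 over the 53 probe sets.

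Of enzymes, carriers and uptake genes 10 of 27 were measured. RBP7, a cellular retinol binding protein, had signals of 16.5, 11.0 and 10.8 at E80 and 2.50, 1.13 and 3.00 at E60, without overlap and at percentile 12.2. The log2 difference of RBP7 was 2.62 (standard error 0.53, adjusted p = 0.0518 from limma), and it passed with the medians of the arrays set equal (adjusted p = 0.0494) or with 32 added to each signal (0.0438), in a range of 0.0438 to 0.693. Most of these signals lie under 16, and with that floor the difference was 0.01. CYP26A1, which breaks down retinoic acid and is induced by it, had 197, 133 and 140 at E80 and 51.3, 136 and 85.2 at E60, a log2 difference of 0.87 (adjusted p = 0.217), and the days overlapped. TTR, the partner of RBP4 in blood, had a log2 difference of 5.22 (adjusted p = 0.247) that lay mainly on E80 replicate 3. No member of this list other than RBP7 and TTR was without overlap.

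Of the partners of RXR 8 of 12 were measured, and 7 had a positive log2 difference on their brightest probe set. The thyroid hormone receptor THRA had signals of 2167, 1779 and 2519 at E80 and 1477, 1577 and 1810 at E60, a log2 difference of 0.40 (adjusted p = 0.178), with a slight overlap. The orphan receptor NR4A2 had 139, 32.4 and 63.6 at E80 and 221, 235 and 93.0 at E60, a log2 difference of -1.36 (adjusted p = 0.233). PPARA, a receptor of fatty acids, had one of 0.93 (adjusted p = 0.516) on a dim probe set. Of the coregulators 4 of 9 were measured: the corepressor NCOR1 had a log2 difference of -0.46 (adjusted p = 0.0996) on 1 of its 3 probe sets, the coactivator NCOA2 one of -0.37 (adjusted p = 0.120) and NCOA1 one of -0.36 (adjusted p = 0.418) on the probe set with the smallest p.

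Of the genes known to respond to retinoic acid 10 of 21 were measured, and those with the smallest p went in both directions. The orphan receptor NR2F2 (COUP-TFII) had a negative log2 difference on all 4 of its probe sets, -0.86 on the one with the smallest p (adjusted p = 0.135), with signals of 60.9, 97.8 and 62.0 at E80 and 180.5, 108 and 113 at E60. The homeobox gene MEIS1 had 114, 41.8 and 93.1 at E80 and 301, 128 and 182 at E60 on its brighter probe set, a log2 difference of -1.32 (adjusted p = 0.144), and like RXRG it was lowest on E80 replicate 2 and highest on E60 replicate 1. Its dimmer probe set had 19.5, 3.42 and 22.5 at E80 and 76.9, 31.2 and 52.1 at E60. That was a log2 difference of -2.13 (adjusted p = 0.165 from limma), or 4.37-fold lower at E80, without overlap. The study lists both probe sets with negative folds, from these same arrays. RARRES2, which encodes the secreted protein chemerin, had 89.3, 93.7 and 99.2 at E80 and 70.9, 73.9 and 70.2 at E60, a log2 difference of 0.39 (adjusted p = 0.184). Over the 14 probe sets of the list other than those of CRABP2, RARB and CYP26A1, the median log2 difference was -0.40, against -0.05 over all probe sets tested, and 4 of the 14 were those of NR2F2. By the brightest probe set of each of the 10 genes, members included, the median was 0.06, of the opposite sign, with 6 genes higher and 4 lower at E80.

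**Figure D5:**
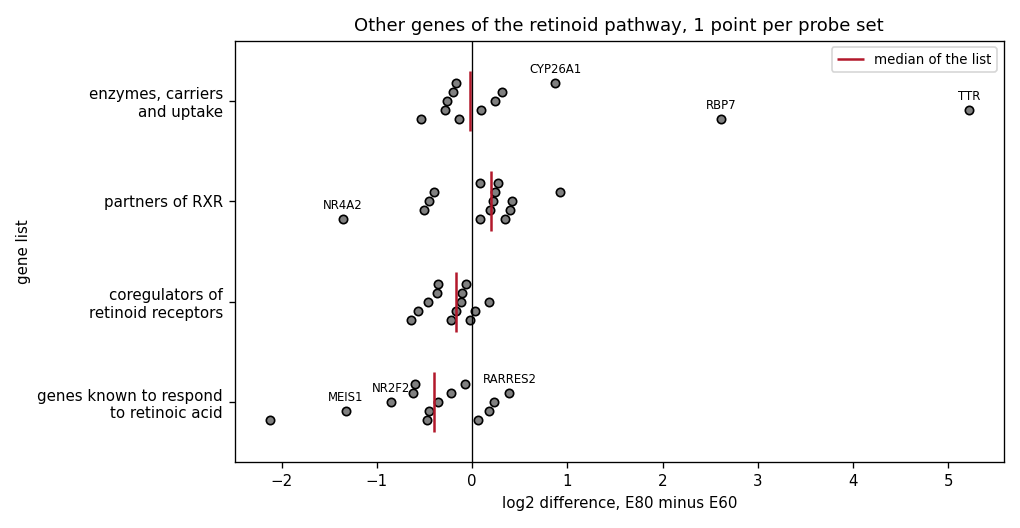
Log2 difference of E80 minus E60 (horizontal axis) for the 53 further probe sets in the 4 pathway lists (rows), with 1 point per probe set and a red line for the median of each list over probe sets (-0.02, 0.20, -0.17 and -0.40 from top to bottom, with CYP26A1 shown in the top list only). No point passed the test, and TTR and RBP7 lie farthest to the right.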

How the data were processed

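Signals of 6 arrays (3 embryos at E80, 3 at E60, assigned by the embryonic day in the labels) were used. The authors reduced each scan with MAS5 to 1 linear intensity per probe set, scaled per array, and deposited these. No MAS5 version is named in the sources used here. The 124 control probe sets among 24123 were dropped. Log2 signals without pseudocount were compared in limma 3.58.1 under R 4.3.3 (lmFit, eBayes with an intensity trend, no covariates), with Benjamini-Hochberg adjustment over 23999 probe sets and a threshold of 0.05. MAS5 does not pull dim signals together, so folds of dim probe sets are noisy.

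Gene names come from the platform annotation, in which 10069 probe sets have exactly 1 symbol, 198 several and 13732 none. No pig genome or sequence table was used. An item withheld from the text is not reported here. CRABP2, RXRG and RLBP1 are named in the study, and the members and lists were chosen with earlier results of these data known. Named were all members, and from each list the genes past the test or the 3 genes with the smallest p. The probe sets most like a member had 1 symbol, a mean signal above the median and the highest Pearson's r. Further marker genes (LUM, DCN, COL1A2, PTGDS, COL3A1, ASPN, GFAP, F5) were chosen after their values were seen, and the other measured genes of their lists were named beside them. The limma script was checked on simulated data. Alternatives were quantile normalization, median centring, 32 added to signals, a floor of 16, the brightest 66% of probe sets, other variance models, other fold definitions and leaving out each array. Arrays have no counting depth, and 3 embryos per day limit the precision.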

Additional observations from a re-analysis of the deposited data

How the results depend on the processing

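The count of retinoid probe sets past limma (0 of 14) was 1 among the brightest 66% of probe sets and 1 with the robust variance model (RBP4 in both), and 0 to 1 when single arrays were left out (RBP4 without E60 replicate 3, CRABP2 without E80 replicate 2, RLBP1 without E80 replicate 3). The count past the fold rule (1, RLBP1) was 0 with 32 added to each signal, 0 with the floor of 16, 0 among the brightest 66%, where RLBP1 is filtered out, 2 at a fold of 2, and 1 to 2 with single arrays left out. Over all probe sets, 467 passed limma, against 288 with the floor, 763 among the brightest 66%, 0 without the intensity trend (3706 at an unadjusted p under 0.05) and 1 to 367 with single arrays left out, where 1 passed without E60 replicate 1, E60 replicate 2 or E80 replicate 1, 294 without E60 replicate 3 and 200 without E80 replicate 3. The fold rule gave 291, against 8 with 32 added, 28 with the floor, 32 among the brightest 66%, 794 at a fold of 2 and 468 to 556 with single arrays left out. Of the pathway genes outside the members 0 passed, and 1 did (RBP7) with median centring and 1 (RBP7) with 32 added. Median centring moved the median log2 difference of all probe sets to 0.06, against -0.05 without it, and the calls to 311 higher and 108 lower at E80, against 224 and 243. The causes of these shifts were not tested. Signs of differences near 0 turned: RXRB was 0.0069 with quantile normalization and 0.049 with median centring, the dim probe set of RARB was 0.10 with median centring, and with single arrays left out RXRB lay between -0.17 and 0.10, the probe sets of RARB between -0.078 and 0.038 (dim) and between -0.28 and 0.39 (brighter), and the dim probe set of RXRA between -0.13 and 0.18. The signs of CRABP2, RXRG, RLBP1 and both probe sets of RBP4 did not turn in any setting, though the dim one of RBP4 was at 0 with the floor. No paired analysis was possible because the labels number the 6 samples in 1 run, and the replicate numbers used here were given within each day in that order and pair no embryos.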
